A study of Mus musculus with 6 samples.

Results

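Mitochondrial beta-oxidation and the tricarboxylic acid (TCA) cycle were followed through 38 enzyme genes, listed by name and matched by symbol among the 55471 genes of the tables. They were read in OT-I CD8+ T cells, which carry a transgenic receptor for an ovalbumin peptide and Cas9. The cells were recovered from orthotopic pancreatic tumours of the ovalbumin-expressing line KPC_OVA, in immunocompetent recipients of C57BL/6J background treated with anti-PD-1. A guide to Elovl1, a fatty acid elongase, marked the cells of the 3 sgElovl1 libraries, and a nontargeting guide those of the 3 sgNT libraries. All 6 were sorted on the vector marker CD90.1, 7 days after transfer, and the study's methods give mice of 6 to 12 weeks. In sgElovl1, replicates 1 and 2 each combined RNA of 2 tumours, whereas replicate 3 and every sgNT library came from 1 tumour. The groups follow the sample titles, because the genotype label reads the same for all 6.

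Beta-oxidation shortens fatty acids inside mitochondria. Long chains are activated to acyl-CoA, carried across the membranes as acylcarnitines, and then go through rounds of dehydrogenation, hydration, a second oxidation and thiolysis that release acetyl-CoA. The TCA cycle burns that acetyl-CoA, and the acetyl-CoA that pyruvate dehydrogenase makes from glucose, to supply electrons to the respiratory chain. In CD8+ T cells, fatty acid oxidation is best known from memory cells, which use it more than effector cells do.

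Libraries held between 21980273 and 26165380 expected counts. Elovl1 itself averaged 84.5 ± 9.71 CPM (read counts scaled to a common library size with TMM factors) in sgElovl1 and 272.4 ± 15.5 CPM in sgNT (SD, n = 3 each). Its log2 fold change was -1.69, and no sgElovl1 library reached an sgNT one. In edgeR's quasi-likelihood test with Benjamini-Hochberg adjustment, sgElovl1 had 1084 genes called higher and 643 called lower out of 12546. With library totals in place of TMM normalisation the split became 1409 higher and 258 lower. The CD8 T cell markers were present in all libraries, but their summed level was 11830 to 13560 CPM in sgElovl1 and 15440 to 15910 CPM in sgNT, and of the 10 markers 4 were lower and 1 higher. In such bulk samples fewer cells of a type and less RNA per cell cannot be told apart. The third libraries stood apart in their tumour epithelium markers, which summed to 352.3 CPM in sgElovl1 replicate 3 against 1115 CPM in sgNT replicate 3. In the other libraries that sum was 35.58 and 47.06 CPM in sgElovl1, and 56.70 and 48.18 CPM in sgNT. Macrophage and monocyte markers were higher in sgElovl1 for 3 of 11 tested, Adgre1, C1qa and Fcgr1, and 10 of the 11 had positive fold changes. All 12 summed to between 1168 and 1551 CPM in sgElovl1 and between 633.6 and 1259 CPM in sgNT, most of it Ly6c2, which CD8 T cells also express. Without Ly6c2 the sums were 100.6, 163.5 and 324.7 CPM in sgElovl1 against 42.86, 60.39 and 73.13 CPM in sgNT, without overlap, and Lyz2 had 53.71, 77.32 and 159.3 CPM in sgElovl1 against 1.065, 8.615 and 14.03 CPM in sgNT. The 8 dendritic cell markers summed to between 137.6 and 510.8 CPM in sgElovl1 and between 99.38 and 140.5 CPM in sgNT, with none of 4 tested called. H2-Aa, H2-Ab1 and Cd74 had log2 fold changes of 2.25, 1.06 and 2.06, and Xcr1 had -0.16. Flt3, Clec9a, Cd209a and Siglech had too few reads to be tested. Neutrophil markers summed to between 1.232 and 3.613 CPM in sgElovl1 and at most 0.3834 CPM in sgNT, and the 1 tested, Csf3r, was higher, with 14, 13 and 24 counts in sgElovl1 against 0 in each sgNT library. Endothelial markers summed to between 15.14 and 17.87 CPM in sgElovl1 and between 13.45 and 16.93 CPM in sgNT, mostly Pecam1, and fibroblast markers to at most 0.5463 CPM in sgElovl1 and 0.3509 CPM in sgNT. Of these lists, Cdh5 and Emcn of endothelium, Lum and Pdgfra of fibroblasts and Retnlg of neutrophils had no count in any library.

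The enzymes of both pathways had mostly negative fold changes of similar, modest size, and 4 of them passed the test as lower in sgElovl1. These were Acadl, the long-chain acyl-CoA dehydrogenase, Acaa2, the thiolase of the last beta-oxidation step, Eci2, an enoyl-CoA isomerase needed for unsaturated chains, and Suclg1, the alpha subunit of succinyl-CoA ligase. Of the 38 genes 37 had enough reads to be tested, and 4 of these (10.8%) were called lower, where 5.13% of all genes were. Genes with shorter transcripts were called lower more often, 6.92 and 9.06% in the length classes that held 1 and 3 of these 4. None was called higher, where 8.64% of all genes were; DESeq2 called none of them higher and 11 lower, where it called 11.1% of all genes higher and 8.67% lower. At an unadjusted p under 0.05 were 18 of the 37 (48.6%), where 32.2% of all genes were. With the replicate number as a block 2 enzymes stayed called, Acaa2 and Eci2, while Acadl (adjusted p = 0.0535) and Suclg1 (0.0550) did not. The log2 fold change, sgElovl1 over sgNT, was negative for 30 of 37 enzymes (81.1%), with a median of -0.28, whereas 50.4% of all genes were negative and their median was -0.00. All 3 sgElovl1 libraries lay below all 3 sgNT libraries for 17 enzymes, a pattern that 17.7% of all genes showed, and above them for 0 enzymes, where 19.4% of all genes did. The remaining 20 tested enzymes overlapped between the groups. Of 21 tested beta-oxidation enzymes 3 were called, with a median of -0.29, and of 16 enzymes of pyruvate dehydrogenase and the TCA cycle 1 was, with a median of -0.21. The counts turned on single libraries, for the enzymes and for all genes. Without replicate 1 of sgElovl1 0 enzymes and 0.623% of all genes were lower, and without its replicate 2 the values were 0 and 0.323%. Without replicate 1 of sgNT they were 0 and 1.34%, without its replicate 2 they were 1 and 0.488%, and without its replicate 3 they were 1 and 3.29%. Without sgElovl1 replicate 3 there were 16 enzymes lower, where 10.1% of all genes were. With replicate 3 of each group left out, which held the most tumour epithelium marker RNA, 18 enzymes were called lower and 3 higher, where 16.1% of all genes were lower and 15.4% higher.

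**Figure D1:**
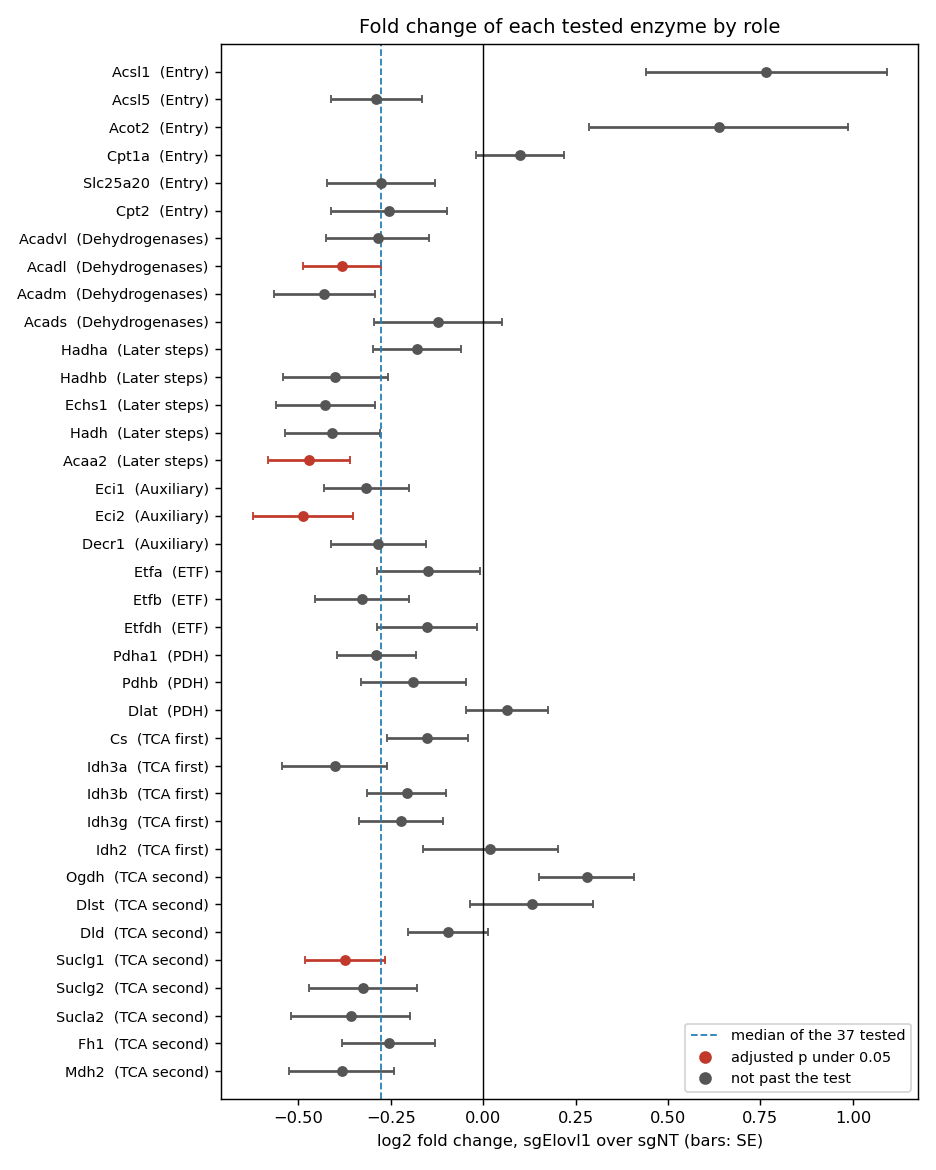
Fold change of each of the 37 tested enzymes, in order of pathway role, with the log2 fold change of sgElovl1 over sgNT on the horizontal axis, bars for the SE, red for an adjusted p under 0.05 and a dashed line at the median of -0.28. The 4 called enzymes lie left of the dashed line, 30 of 37 points lie left of 0, and Acsl1 and Acot2 lie farthest right with the widest bars.

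Entry of fatty acids gave the most mixed picture of the pathway, with a median log2 fold change of -0.08 over 6 tested genes and no call. Acyl-CoA synthetases activate the free acid, and Acsl5 was far more abundant by TPM than Acsl1, the other one listed. Levels of further acyl-CoA synthetases were not compared. Acsl5 measured 279.6, 293.8 and 349.7 CPM in sgElovl1, against 365.1, 405.2 and 358.0 CPM in sgNT. All sgElovl1 values lay below all sgNT values, with sgElovl1 replicate 3 close to the lowest of sgNT (log2 fold change -0.29 ± 0.12 SE, adjusted p = 0.131). Its relative Acsl1 was scarce, with 4.158, 4.443 and 2.927 CPM in sgElovl1 against 1.491, 2.183 and 3.104 CPM in sgNT. Here sgElovl1 replicates 1 and 2 exceeded every sgNT library and replicate 3 lay inside the sgNT range (log2 fold change 0.77 ± 0.33 SE, adjusted p = 0.131). Per transcript length, Acsl5 exceeded Acsl1 by 38.53 to 63.46 times in sgElovl1 and by 67.83 to 145.2 times in sgNT, ranges of the TPM ratio that did not meet. Acsl1 had only 35 to 122 counts in a library, and its average transcript length ran from 1402 to 3188 bases within sgNT. The other TPM ratios formed between enzymes in all libraries overlapped between the groups, and no share over all genes was computed. Acot2, a mitochondrial thioesterase that frees the fatty acid again, had 4.813, 5.135 and 2.378 CPM in sgElovl1 against 1.746, 3.002 and 3.187 CPM in sgNT. It too was high in sgElovl1 replicates 1 and 2 and not in replicate 3 (log2 fold change 0.64 ± 0.35 SE, adjusted p = 0.231). Acot2, Acsl1 and Dlst, described with the TCA cycle, were the 3 enzymes called higher once the third library of both groups was left out.

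The carnitine shuttle held fold changes of both signs and no call. Cpt1a, the outer-membrane enzyme that sets the pace of long-chain oxidation, measured 41.62, 42.98 and 37.91 CPM in sgElovl1 against 38.59, 33.95 and 41.85 CPM in sgNT. These values overlapped, with a log2 fold change of 0.10 ± 0.12 SE and an adjusted p of 0.601. Cpt1b, the muscle form, was near 0 throughout, with at most 0.0385 CPM in a sgElovl1 library and 0.3119 CPM in an sgNT library, and was not tested. The inner-membrane carrier Slc25a20 had 79.89, 83.48 and 117.4 CPM in sgElovl1 against 112.8, 111.9 and 115.4 CPM in sgNT, so that sgElovl1 replicate 3 exceeded every sgNT library. Cpt2, which turns acylcarnitine back into acyl-CoA in the matrix, had 20.56, 23.16 and 27.35 CPM in sgElovl1 against 26.96, 33.29 and 24.46 CPM in sgNT. Neither Slc25a20 (adjusted p = 0.214) nor Cpt2 (adjusted p = 0.282) passed the test.

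The acyl-CoA dehydrogenases take the first electrons, each for its own range of chain lengths, and all 4 had negative log2 fold changes, with a median of -0.33. Acadl, at chr1:66830839-66863277 in GENCODE M21 on GRCm38, measured 189.0, 184.9 and 188.4 CPM in sgElovl1, against 244.0, 229.5 and 259.3 CPM in sgNT. The sgElovl1 libraries hardly differed from each other and all lay under the lowest sgNT library. Acadl was thus lower by a log2 fold change of -0.38 ± 0.10 SE (adjusted p = 0.0355). Acadm, the medium-chain enzyme, had 49.01, 50.77 and 67.45 CPM in sgElovl1 against 75.91, 78.67 and 70.57 CPM in sgNT. It had the most negative fold change of the 4 and no overlap, but sgElovl1 replicate 3 stood near the sgNT level (log2 fold change -0.43 ± 0.14 SE, adjusted p = 0.0589). The very long-chain enzyme Acadvl repeated this shape, with 129.3, 149.0 and 183.4 CPM in sgElovl1 against 189.9, 203.7 and 169.2 CPM in sgNT. The short-chain enzyme Acads was the lowest of the 4 at 17.60, 14.71 and 12.53 CPM in sgElovl1 against 18.96, 15.83 and 14.07 CPM in sgNT. Both overlapped between the groups, with adjusted p-values of 0.183 for Acadvl and 0.661 for Acads. With the replicate number as a block Acadl had an adjusted p of 0.0535. It kept its call when sgElovl1 replicate 3 was left out (adjusted p = 0.0248) and lost it when any other library was, with adjusted p-values up to 0.163, reached without sgElovl1 replicate 2. An offset for transcript length gave 0.132.

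Hydration, the second oxidation and thiolysis had the most negative median of the role groups, -0.41 over 5 enzymes. For 4 of them all sgElovl1 libraries lay below all sgNT libraries, where 17.7% of all genes did. Acaa2, the thiolase, at chr18:74779197-74806208 in GENCODE M21 on GRCm38, measured 147.9, 146.7 and 173.8 CPM in sgElovl1, against 213.6, 216.9 and 219.1 CPM in sgNT. The sgNT libraries were nearly equal, and even the highest sgElovl1 library stayed clear below them. Acaa2 was lower by a log2 fold change of -0.47 ± 0.11 SE (adjusted p = 0.0203), the smallest adjusted p among the enzymes. Hadhb, the thiolase-bearing beta subunit of the trifunctional protein, which handles long chains, had 232.7, 250.3 and 328.1 CPM in sgElovl1 against 357.3, 380.9 and 331.9 CPM in sgNT. Its partner Hadha, the alpha subunit, had 68.61, 72.92 and 61.14 CPM in sgElovl1 against 76.21, 83.04 and 70.07 CPM in sgNT. The subunits parted in sgElovl1 replicate 3, the highest of its group for Hadhb and the lowest for Hadha, and neither passed the test, with adjusted p = 0.0795 for Hadhb and 0.322 for Hadha. Echs1, the short-chain hydratase, had 47.55, 44.47 and 41.43 CPM in sgElovl1 against 53.59, 54.54 and 71.32 CPM in sgNT. Hadh, which oxidises the hydroxyl of short and medium chains, had 37.04, 39.26 and 30.50 CPM in sgElovl1 against 44.22, 45.30 and 52.32 CPM in sgNT. Neither gene overlapped between the groups and both came just short of the threshold, with log2 fold changes of -0.43 ± 0.13 SE for Echs1 and -0.41 ± 0.13 SE for Hadh and an adjusted p of 0.0562 for each. Acaa2 kept its call without sgElovl1 replicate 3 (adjusted p = 0.00568) and without sgNT replicate 3 (0.0441). The call was lost without replicate 1 (0.0919) or 2 (0.129) of sgElovl1, without replicate 1 (0.0604) or 2 (0.0789) of sgNT, and with the length offset (0.0660).

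Unsaturated fatty acids need auxiliary enzymes to move their double bonds, and all 3 lay lower in every sgElovl1 library than in any sgNT library. Over all genes, 17.7% did so. Eci2, at chr13:34977748-35027096 in GENCODE M21 on GRCm38, measured 52.21, 47.86 and 57.16 CPM in sgElovl1, against 73.95, 62.18 and 84.35 CPM in sgNT. The gap between the highest sgElovl1 and the lowest sgNT library was narrow, and the sgNT libraries spread more widely than those of sgElovl1. Eci2 was lower by a log2 fold change of -0.49 ± 0.13 SE (adjusted p = 0.0365), the most negative value among the enzymes. Its relative Eci1, the more abundant by TPM, had 71.54, 65.89 and 75.55 CPM in sgElovl1 against 80.68, 89.82 and 94.58 CPM in sgNT. Decr1, a dienoyl-CoA reductase, had 29.03, 26.11 and 29.77 CPM in sgElovl1 against 30.12, 35.36 and 37.87 CPM in sgNT. Those groups touched closely for Decr1, and the adjusted p was 0.0869 for Eci1 and 0.153 for Decr1. Eci2 kept its call without sgElovl1 replicate 3 (adjusted p = 0.0248) and without sgNT replicate 2 (0.0486), and lost it without replicate 1 (0.115) or 2 (0.173) of sgElovl1 and without replicate 1 (0.101) or 3 (0.0892) of sgNT. With the length offset its adjusted p was 0.0995.

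**Figure D2:**
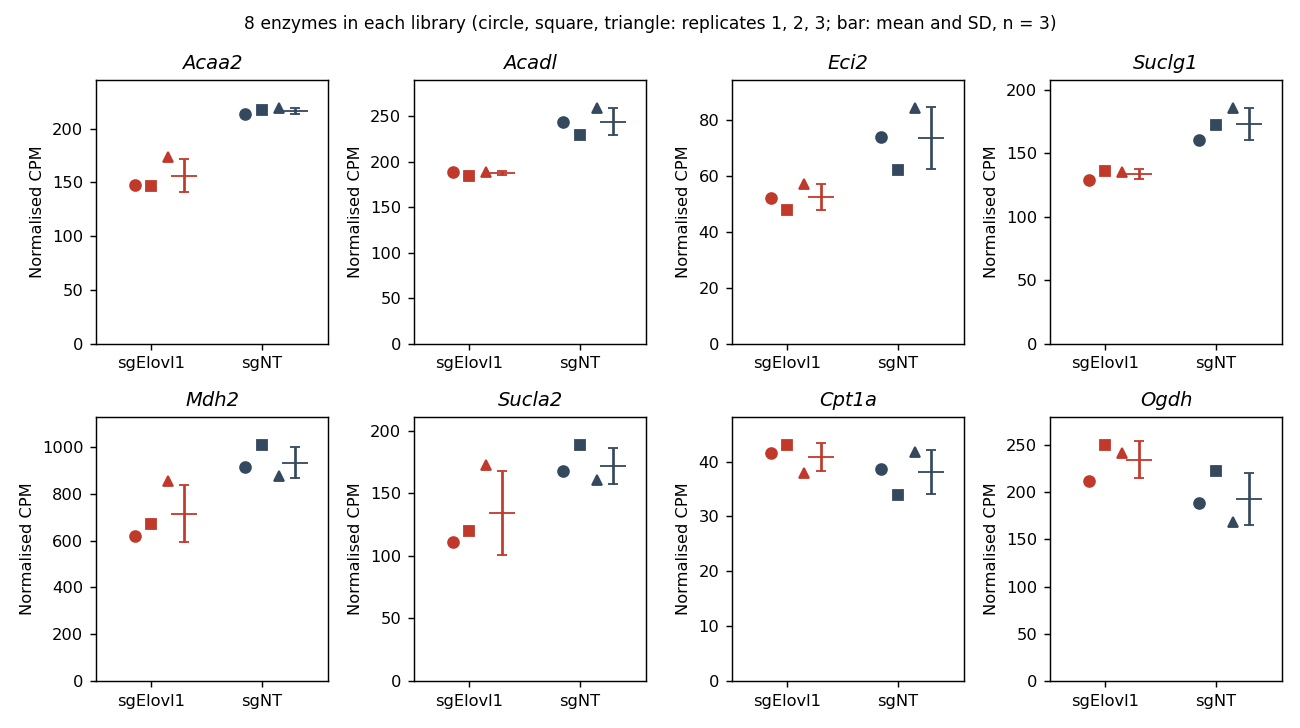
TMM-normalised CPM of 8 enzymes in each library, with sgElovl1 left of sgNT, symbols for replicates 1 to 3 and a bar for the mean and SD (n = 3 each). The upper row shows the 4 called enzymes, with no overlap between the groups, and the lower row shows Mdh2 and Sucla2, where sgElovl1 replicate 3 approaches or enters the sgNT range, and Cpt1a and Ogdh, which overlap.

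Electrons from the dehydrogenases pass to the electron transfer flavoprotein, of subunits Etfa and Etfb, and from it to the quinone pool through Etfdh. Etfb, by TPM the most abundant enzyme of the beta-oxidation set, had 235.8, 219.0 and 263.4 CPM in sgElovl1 against 272.8, 284.5 and 343.8 CPM in sgNT. The groups did not overlap, though the test was not passed (log2 fold change -0.33 ± 0.13 SE, adjusted p = 0.104). Etfa had 178.2, 180.4 and 243.4 CPM in sgElovl1 against 204.0, 221.9 and 241.5 CPM in sgNT. Etfdh had 81.20, 89.16 and 105.9 CPM in sgElovl1 against 107.7, 110.4 and 88.66 CPM in sgNT. For Etfa the highest library of all 6 was sgElovl1 replicate 3, and the adjusted p was 0.492 for Etfa and 0.465 for Etfdh.

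Pyruvate dehydrogenase feeds glucose carbon into the cycle, and its 3 genes were not called. Pdha1, the catalytic alpha subunit, had 118.1, 127.8 and 130.9 CPM in sgElovl1 against 146.1, 162.3 and 152.1 CPM in sgNT. These did not overlap (log2 fold change -0.29 ± 0.11 SE, adjusted p = 0.0895). Pdhb, the beta subunit and by TPM the most abundant of the 3, had 220.2, 232.4 and 312.8 CPM in sgElovl1 against 275.2, 296.7 and 300.6 CPM in sgNT. Dlat, the acetyltransferase core, had 79.05, 83.51 and 83.41 CPM in sgElovl1 against 78.59, 84.28 and 72.35 CPM in sgNT. Pdhb was highest of all in sgElovl1 replicate 3 (adjusted p = 0.379), and Dlat differed by less than the spread between libraries (log2 fold change 0.06 ± 0.11 SE, adjusted p = 0.725).

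From citrate to 2-oxoglutarate 4 of 5 enzymes had negative fold changes and none was called. Idh3a, the catalytic subunit of NAD-dependent isocitrate dehydrogenase, had 228.7, 257.1 and 301.6 CPM in sgElovl1 against 319.4, 404.3 and 316.8 CPM in sgNT. The groups did not overlap (log2 fold change -0.40 ± 0.14 SE, adjusted p = 0.0788). Its partner subunit Idh3g, the most abundant of the 5 by TPM, had 234.5, 219.1 and 245.3 CPM in sgElovl1 against 254.8, 260.4 and 300.2 CPM in sgNT. Idh3b, the other partner, had 164.4, 154.1 and 145.9 CPM in sgElovl1 against 171.3, 175.7 and 189.0 CPM in sgNT. All 3 subunits were thus lower in sgElovl1 without overlap, where 17.7% of all genes were. The adjusted p-values were 0.199 for Idh3g and 0.205 for Idh3b. Citrate synthase, Cs, which joins acetyl-CoA to oxaloacetate, had 303.6, 296.1 and 292.3 CPM in sgElovl1 against 300.7, 344.2 and 345.9 CPM in sgNT. Idh2, the NADP-dependent mitochondrial form, had 13.40, 16.54 and 10.66 CPM in sgElovl1 against 12.10, 13.57 and 14.45 CPM in sgNT. For Cs a single sgElovl1 library passed the lowest of sgNT (adjusted p = 0.366), and for Idh2 the sgElovl1 libraries spread across and beyond the sgNT range (adjusted p = 0.958).

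The return from 2-oxoglutarate to oxaloacetate held Suclg1, the only called one of the listed TCA cycle enzymes. Sdhc of succinate dehydrogenase, outside the list, was also called lower and is described with the neighbouring pathways. Succinyl-CoA ligase pairs the alpha subunit Suclg1 with a GTP-specific partner, Suclg2, or an ATP-specific one, Sucla2. Suclg1, at chr6:73248382-73276911 in GENCODE M21 on GRCm38, measured 128.9, 136.2 and 135.0 CPM in sgElovl1, against 160.2, 172.6 and 185.7 CPM in sgNT. The sgElovl1 libraries lay close together and well below each sgNT library, for a log2 fold change of -0.37 ± 0.11 SE (adjusted p = 0.0420). Sucla2 had 110.7, 119.8 and 172.2 CPM in sgElovl1 against 167.4, 188.3 and 160.6 CPM in sgNT. Suclg2 had 29.53, 36.20 and 37.13 CPM in sgElovl1 against 34.84, 47.01 and 47.02 CPM in sgNT. Both partners overlapped between the groups, Sucla2 through sgElovl1 replicate 3 alone, at adjusted p-values of 0.153 for Sucla2 and 0.152 for Suclg2. With the replicate number as a block Suclg1 had an adjusted p of 0.0550. It kept its call without sgElovl1 replicate 3 (adjusted p = 0.0304) and lost it when any other library was left out, with adjusted p-values up to 0.153, reached without sgElovl1 replicate 2; the length offset gave 0.200.

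The 2-oxoglutarate dehydrogenase complex, which makes succinyl-CoA, held the positive fold changes of this stretch of the cycle, none of them called. Ogdh, its first component, had 212.1, 249.6 and 241.8 CPM in sgElovl1 against 189.0, 222.5 and 167.9 CPM in sgNT, and 1 sgElovl1 library lay inside the sgNT range. Dlst, the core, had 81.97, 70.26 and 51.22 CPM in sgElovl1 against 60.19, 55.63 and 70.07 CPM in sgNT, the lowest library of all 6 being sgElovl1 replicate 3. The log2 fold changes were 0.28 ± 0.13 SE for Ogdh (adjusted p = 0.160) and 0.13 ± 0.17 SE for Dlst (adjusted p = 0.624). Dld, the lipoamide dehydrogenase that this complex shares with pyruvate dehydrogenase, had 102.6, 105.8 and 114.5 CPM in sgElovl1 against 113.8, 122.1 and 109.2 CPM in sgNT (adjusted p = 0.573).

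The last steps were carried by Fh1, fumarase, and Mdh2, malate dehydrogenase. Mdh2, the most abundant of the 38 by TPM, had 621.8, 672.6 and 853.7 CPM in sgElovl1 against 916.2, 1008 and 876.9 CPM in sgNT. The groups stayed apart only narrowly at sgElovl1 replicate 3 (log2 fold change -0.38 ± 0.14 SE, adjusted p = 0.0922). Fh1 had 85.17, 83.66 and 69.74 CPM in sgElovl1 against 84.17, 99.80 and 100.8 CPM in sgNT, with sgElovl1 replicate 1 just above the lowest sgNT library (adjusted p = 0.184).

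**Figure D3:**
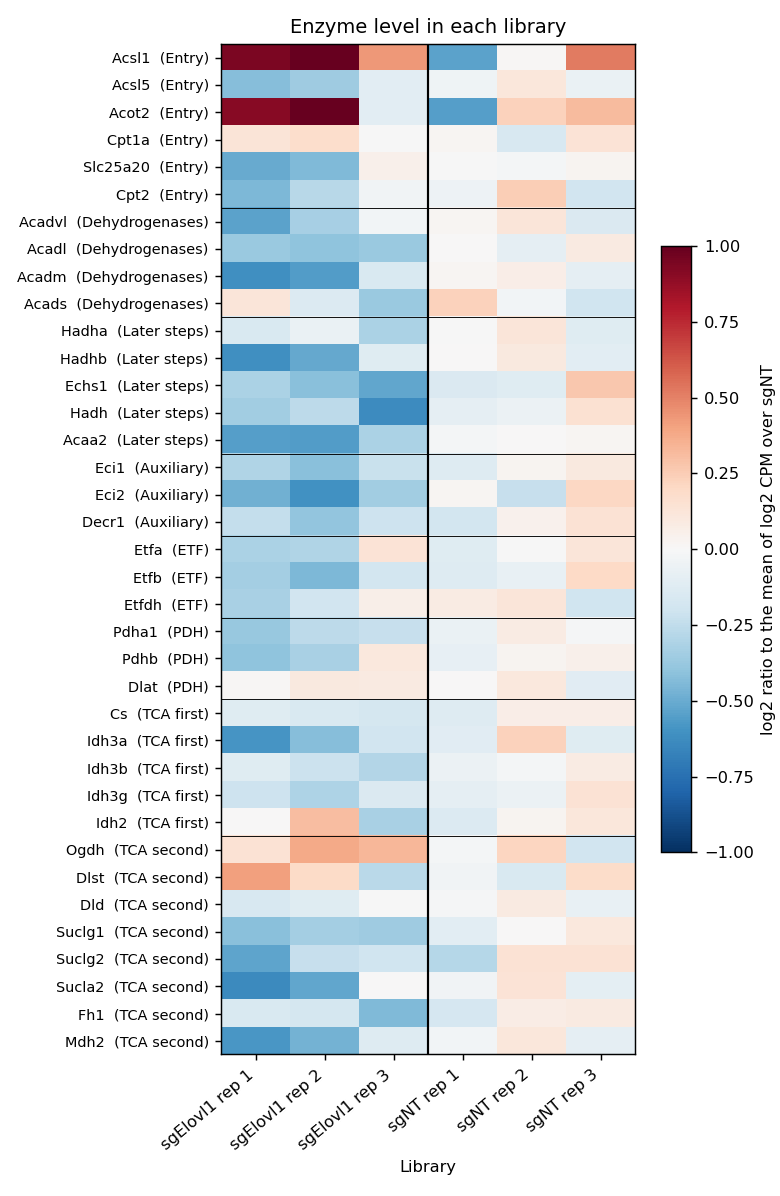
Level of each tested enzyme in each library as the log2 ratio to the mean log2 CPM of sgNT, with sgElovl1 replicates 1 to 3 left of the vertical line, sgNT replicates right of it, blue below and red above that mean, and lines between pathway roles. Columns sgElovl1 1 and 2 are mostly blue and column 3 is paler, with medians of -0.33, -0.30 and -0.17.

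The 3 sgElovl1 libraries did not depart from sgNT alike. Relative to the sgNT mean, the median log2 ratio over the 37 enzymes was -0.33, -0.30 and -0.17 in sgElovl1 replicates 1 to 3, whereas it was within 0.01 of 0 over all genes in each. Replicate 1 lay below all sgNT libraries for 27 enzymes, replicate 2 for 26 and replicate 3 for 23, which was 73.0, 70.3 and 62.2% of enzymes against 34.8, 32.9 and 31.8% of all genes. Within its group, sgElovl1 replicate 3 was the highest library for 21 of 37 enzymes (56.8%) and the lowest for 12 (32.4%), where over all genes it was highest for 42.5% and lowest for 39.4%. The 21 included Slc25a20, Acadvl, Acadm, Hadhb, Etfa, Pdhb, Sucla2 and Mdh2, and the 12 included Acsl1, Acot2, Hadha, Echs1, Hadh, Dlst and Fh1. Among sgNT libraries, replicate 3 was highest for 22 enzymes and lowest for 14, where over all genes it was highest for 36.2% and lowest for 37.5%. The third libraries also carried the tumour epithelium markers given above, whose part in these levels was not tested. Replicate 3 of sgElovl1 was also the only library of its group from 1 tumour. It had the highest macrophage marker sum without Ly6c2 as well, 324.7 CPM. The part of these was not tested either.

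Levels between genes were compared per transcript length, in TPM, and differed widely. Mdh2 ranged from 575.6 to 943.2 TPM over the 6 libraries and Etfb from 403.0 to 546.6 TPM, and these ranges did not meet each other or that of Idh3g, at 244.8 to 283.9 TPM. From Idh3g down to Idh2, at 7.37 to 12.80 TPM, each enzyme's range overlapped that of the next. Acot2 (0.91 to 2.92 TPM) and Acsl1 (0.79 to 2.18 TPM) overlapped each other and lay below all of these, and Cpt1b did not exceed 0.38 TPM. Summed over all 38, enzyme TPM came to 3567, 3767 and 4098 in sgElovl1 and 4239, 4819 and 4276 in sgNT, without overlap. Within complexes the partners were far from equal. Hadha made 0.1435 to 0.2300 of the TPM of Hadhb in sgElovl1 and 0.1370 to 0.1523 in sgNT, and Suclg2 made 0.1589 to 0.2040 of the TPM of Sucla2 in sgElovl1 and 0.1507 to 0.2054 in sgNT. Both pairs of ranges overlapped between the groups.

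**Figure D4:**
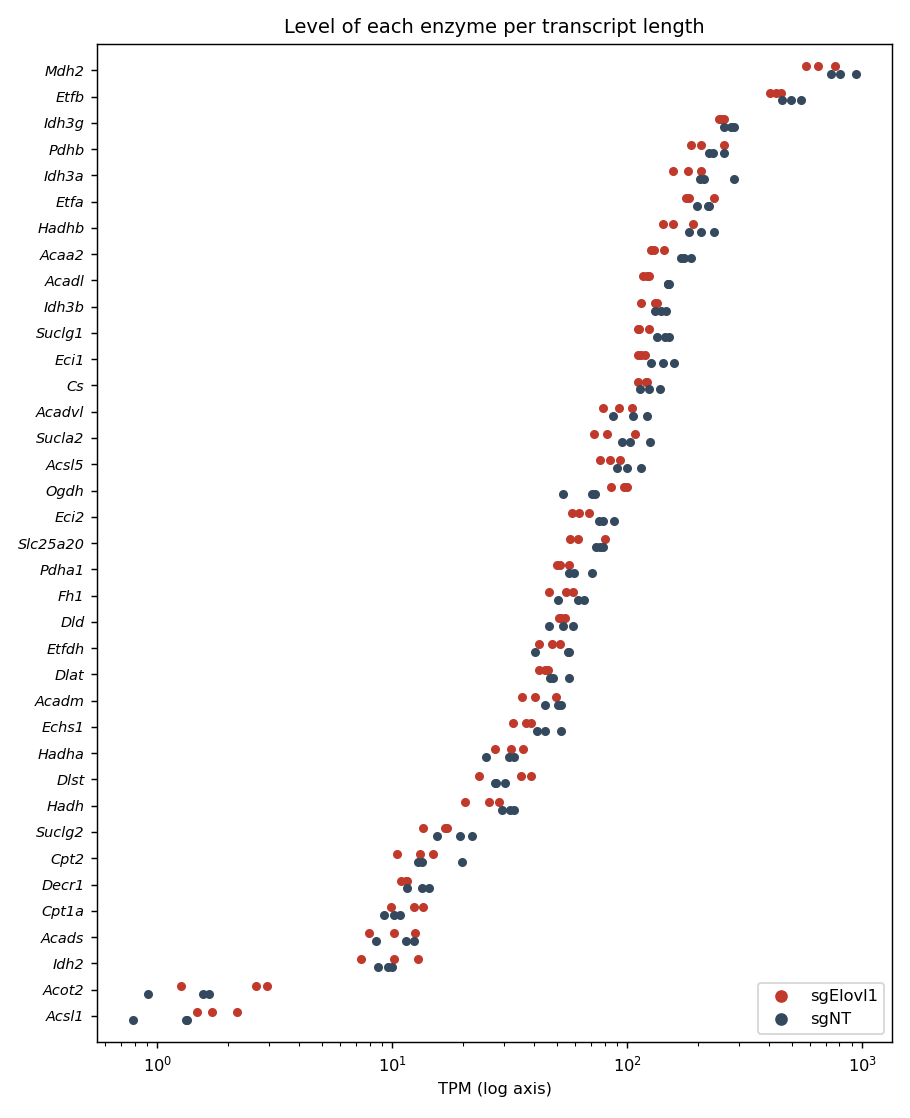
TPM of 37 enzymes in each library on a log axis, with sgElovl1 in red above sgNT in dark blue for each gene, ordered by mean. Mdh2 and Etfb stand apart at the top, Acot2 and Acsl1 at the bottom, and Cpt1b, at 0.38 TPM or less, is not drawn.

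RSEM shares reads among transcripts, which leaves marks on some of these genes. Counts were not whole in all 6 libraries for Acadvl, Hadhb and Pdha1, so part of their reads fitted another gene too. The called Acadl, Acaa2, Eci2 and Suclg1 had whole counts in every library. Acsl5 shares exon sequence on the opposite strand with Zdhhc6, Echs1 with Paox, Idh3b with Nop56, Etfdh with 4930579G24Rik and Acadvl with Dvl2, and whether the counting used strand is not given in the sources used here. The isoform mix can be read from the average transcript length that RSEM gave a gene in each library. Of 35 enzymes whose length varied, 8 had no overlap between the groups, against 20.5% of all genes, and none passed a limma test over all genes. Dlat averaged 2230 ± 99.7 bases in sgElovl1 and 1840 ± 88.7 bases in sgNT, and Hadha 2512 ± 28.5 bases in sgElovl1 and 2860 ± 120 bases in sgNT (SD, n = 3 each). These lengths did not overlap, at adjusted p = 0.167 for both, and the CPM of Dlat and Hadha count all isoforms together.

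Fold changes ran with transcript length over all genes. With the tested genes split into 4 length classes of equal size, the median log2 fold change of all genes was -0.12 in the class under 1128 bases, -0.16 and 0.01 in the next classes, and 0.29 above 2791 bases. The enzymes lay below each of these, with medians of -0.32 over 6 enzymes, -0.36 over 17, -0.15 over 12 and -0.10 over 2. In the same order, 6, 15, 8 and 1 enzymes were negative, against 62.0, 66.4, 48.5 and 24.6% of all genes. Called lower were 1, 3, 0 and 0 enzymes, against 6.92, 9.06, 3.48 and 1.05% of all genes. An offset for length brought their median to -0.21 and left none of the 4 calls, while Acsl5 was called lower, where 2.73% of all genes were, and an offset for length and GC content brought it to -0.12. With length and GC content Acsl5, Dld, Pdha1 and Sucla2 were called lower instead, where 3.82% of all genes were.

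**Figure D5:**
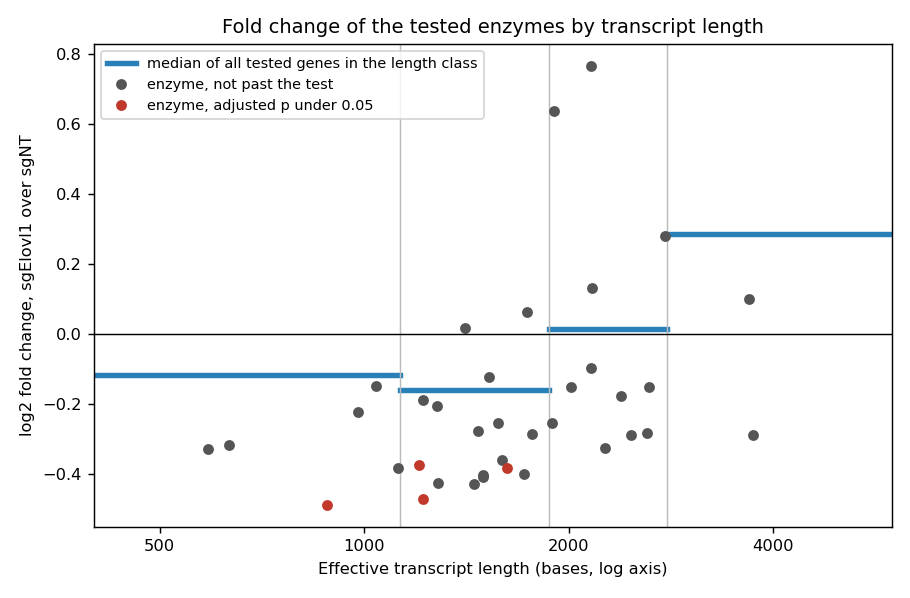
Log2 fold change of the 37 tested enzymes, sgElovl1 over sgNT, against effective transcript length in bases on a log axis, with blue bars for the median of all tested genes in each of 4 length classes, parted by grey lines. The 4 called enzymes, in red, lie in the shorter classes, and the enzyme medians of -0.32, -0.36, -0.15 and -0.10 lie below the blue bars.

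Promoters are shown for Acadl, Eci2 and Suclg1, 3 of the 4 called enzymes, because these genes were lower together. That of Acaa2 is not shown. The sequences come from RefSeq on GRCm38.p6, in which 34 of the 38 genes matched with 40 promoters of 300 bases around the start site. The windows of Eci2 and Etfdh lie inside the gene spans of GENCODE M21, downstream of the outermost annotated start. Etfdh, not called, is added because it held the only match among them to the site of NRF1, a regulator of nuclear-encoded mitochondrial genes, which is in capitals.
Acadl, chr1:66863260-66863559, - strand: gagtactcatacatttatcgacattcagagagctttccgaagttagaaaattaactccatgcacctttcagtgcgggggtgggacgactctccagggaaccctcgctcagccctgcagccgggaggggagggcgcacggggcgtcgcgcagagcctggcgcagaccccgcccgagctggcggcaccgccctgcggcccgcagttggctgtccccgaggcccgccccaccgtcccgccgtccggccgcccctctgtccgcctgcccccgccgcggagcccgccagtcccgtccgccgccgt
Eci2, chr13:34994095-34994394, - strand: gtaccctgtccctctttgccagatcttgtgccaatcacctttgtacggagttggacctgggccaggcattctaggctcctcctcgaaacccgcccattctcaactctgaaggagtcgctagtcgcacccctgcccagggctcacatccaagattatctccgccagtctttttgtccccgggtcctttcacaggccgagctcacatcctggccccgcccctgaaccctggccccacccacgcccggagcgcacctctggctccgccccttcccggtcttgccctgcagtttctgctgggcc
Suclg1, chr6:73248255-73248554, + strand: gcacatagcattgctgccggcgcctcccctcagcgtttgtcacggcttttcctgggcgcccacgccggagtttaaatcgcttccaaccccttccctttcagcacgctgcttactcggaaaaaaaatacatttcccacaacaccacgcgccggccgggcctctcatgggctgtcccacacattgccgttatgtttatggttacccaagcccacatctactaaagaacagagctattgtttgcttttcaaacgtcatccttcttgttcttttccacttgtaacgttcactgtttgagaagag
Etfdh, chr3:79628718-79629017, - strand: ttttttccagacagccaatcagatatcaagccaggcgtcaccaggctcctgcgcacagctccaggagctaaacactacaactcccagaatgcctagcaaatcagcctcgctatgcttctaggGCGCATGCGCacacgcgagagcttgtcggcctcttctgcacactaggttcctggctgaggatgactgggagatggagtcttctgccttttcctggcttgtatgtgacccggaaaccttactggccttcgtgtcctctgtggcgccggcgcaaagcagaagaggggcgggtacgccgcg

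On both strands, the NRF1 palindrome spelled by the capitals in Etfdh occurred in 0.971% of the 32851 promoters and in 1 of the 34 genes, Etfdh. TCAAGGTCA, the site of the oestrogen-related receptors, occurred in 0.423% of promoters and 0 of the 34 genes, and the site of PPAR, the fatty acid-sensing receptors, a pair of AGGTCA with 1 base between, in 0.0396% and 0 genes. CCGGAAG, a core bound by ETS factors, occurred in 8.86% of promoters and in 5 genes, Cpt2, Dlst, Idh3b, Idh3g and Slc25a20. These percentages count single promoters, whereas the enzymes were counted by gene, with 40 promoters for the 34 genes. The promoters of Acadl, Eci2 and Suclg1 had no match to these letters in this window, and held 70.3, 62.3 and 51.0% G and C.

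Neighbouring pathways were read from lists of further genes, beside 5.13% of all genes called lower and 8.64% called higher. Of 35 other genes of fatty and branched-chain acyl-CoA oxidation 0 were called higher and 2 lower, Acad9 and Bckdha, and the median was -0.09. Acad9, a dehydrogenase that also helps assemble complex I, had 33.81, 35.29 and 38.19 CPM in sgElovl1 against 46.90, 49.67 and 43.67 CPM in sgNT. Of 19 further genes of TCA cycle enzymes, their assembly and cofactors, and the pyruvate carriers, 2 were lower, with a median of -0.15. Sdhc, a membrane anchor of succinate dehydrogenase, had 119.2, 120.2 and 150.4 CPM in sgElovl1 against 180.8, 187.1 and 171.1 CPM in sgNT, and Iscu, the iron-sulphur cluster scaffold, was the other (log2 fold change -0.48 ± 0.14 SE). The groups did not overlap for Acad9 (adjusted p = 0.0412) or Sdhc (adjusted p = 0.0301). Of 9 genes that control pyruvate dehydrogenase 1 was lower, the inhibitory kinase Pdk3 (log2 fold change -0.39 ± 0.11 SE, adjusted p = 0.0386).

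Among 22 tested genes of anaplerosis and of the metabolite shuttles 4 were called lower, where 5.13% of all genes were. The median over the list was -0.18, and the 4 included genes of the malate-aspartate shuttle. Got1, the cytosolic aminotransferase, had 88.63, 105.0 and 95.49 CPM in sgElovl1 against 128.3, 147.4 and 148.0 CPM in sgNT, Got2, the mitochondrial one, had a log2 fold change of -0.46 ± 0.13 SE and Slc25a11, the carrier of 2-oxoglutarate and malate, of -0.46 ± 0.11 SE. Nnt, the transhydrogenase of the inner membrane, was the fourth (log2 fold change -0.49 ± 0.14 SE). Of the 17 nuclear genes called in these lists, those of mitochondrial import and those of the closing section, 6 kept their call with the length offset, among them Got1, Got2 and Nnt. Leaving out single libraries kept 1 of the 17 without sgElovl1 replicate 1, 1 without sgElovl1 replicate 2, 15 without sgElovl1 replicate 3, 3 without sgNT replicate 1, 1 without sgNT replicate 2 and 10 without sgNT replicate 3. With the replicate number as a block Acad9 (adjusted p = 0.0616), Bckdha (0.0657), Pdk3 (0.0568), Nnt (0.0573), Tomm6 (0.0601) and Timm22 (0.0608) lost their calls.

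Other mitochondrial genes were set beside the enzymes. Of 38 genes listed as a reference for mitochondrial content, 29 had negative log2 fold changes, with a median of -0.20. Most of the 38 belong to import and the outer membrane, and the rest include inner-membrane carriers, matrix chaperones and respiratory chain genes. Called lower were 3, Tomm6, Timm22 and Samm50, where 5.13% of all genes were. The median log2 ratio of the 38 to the sgNT mean was -0.23, -0.23 and -0.13 in sgElovl1 replicates 1 to 3. For the enzymes it was -0.33, -0.30 and -0.17, and the difference between the lists was not tested. Transcripts of the mitochondrial genome went in the opposite direction. Of 12 tested protein genes 11 were higher, where 8.64% of all genes were, with a median of 1.87. The sum over all 13 protein genes was 9521 to 14290 CPM in sgElovl1 and 2203 to 4534 CPM in sgNT. Among these, mt-Atp6 had 2808, 2642 and 2372 CPM in sgElovl1 against 1032, 583.6 and 593.9 CPM in sgNT. The part of these transcripts, of the lower summed level of CD8 T cell markers and of the higher macrophage markers in the enzyme values was not tested. Leaving out single libraries kept 2 of the 11 without sgElovl1 replicate 1, 3 without sgElovl1 replicate 2, 9 without sgElovl1 replicate 3, 9 without sgNT replicate 1, 5 without sgNT replicate 2 and 6 without sgNT replicate 3, and mt-Atp6 kept its call in all 6. Without the third library of both groups 3 of the 11 stayed called, where 15.4% of all genes were higher. The length offset kept 10, length and GC content 7 and the replicate block 11.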

How the data were processed

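Bulk RNA was sequenced from 3 sgElovl1 and 3 sgNT samples; cells of each mouse were kept apart, except where RNA of 2 tumours was pooled, and each pool counted as 1 sample. Per the submitters' processing notes, reads of SMARTer pre-amplified cDNA went through STAR 2.7.7a, RSEM 1.3.1 and DESeq2 1.36.0 on mm10. The deposited tables hold expected counts (estimated reads per gene, unscaled), which were rounded and used for all tests. The deposited TPM, scaled by the authors' software to transcript length and library, served for levels between genes and 1 alternative, and the deposited gene lengths in bases are another column. GENCODE M21 symbols matched 55230 of 55471 gene IDs, and the authors' annotation release is not given in the sources used here. Depth was 21980273 to 26165380 expected counts per library.

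edgeR 4.0.16 in R 4.3.3 was run with filterByExpr (minimum count 10), TMM and robust quasi-likelihood fits on the group alone. Tests were two-sided, Benjamini-Hochberg adjusted over 12546 genes and called at 0.05. Fold changes put sgElovl1 over sgNT on a log2 scale, and levels are CPM with TMM scaling. The steps were tested on simulated data, and the biological coefficient of variation of the libraries was 0.22. Alternatives were DESeq2 1.42.0, limma 3.58.1 (voom, and log2 of TPM plus 1), other scalings and filters, offsets for length and GC content, a replicate block and leaving libraries out. Deviations of same-numbered samples from their group means correlated at 0.21, 0.25 and 0.41 for replicates 1 to 3. Those of samples with unlike numbers correlated at -0.29 to 0.17. Each same-numbered value thus exceeded every other, the closest being 0.21 and 0.17, but the titles, which give the numbers, do not state that samples were paired. The third libraries, at 0.41, shared the tumour epithelium markers given above, whose part in this was not tested. The calls nevertheless come from the fits without a block, as the study's methods state none, and the blocked values are given where they differ. P-values measure the spread between these samples. Isoform-weighted lengths were compared with limma on log2 bases.

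The enzymes and lists were chosen with earlier results of these data known. Enzymes were described in full if called, or if first in their role group by p or by mean TPM; others were added after their values were seen, as were the promoter of Etfdh and the genes named from other lists. A called gene from these other lists is not reported here, though counts and medians over lists include it.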

Additional observations from a re-analysis of the deposited data

How the results depend on the processing

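Over the 18 refits the median log2 fold change of the enzymes stayed between -0.32 and -0.12, and 28 to 31 of the enzymes tested were negative. Adjusted p-values ranged from 0.00406 to 0.163 for Acadl, 0.000784 to 0.132 for Acaa2, 0.00993 to 0.173 for Eci2 and 0.00944 to 0.381 for Suclg1, which were called in 6, 11, 9 and 6 of 18. Against 4 enzymes lower, 11 were called by DESeq2, 1 without TMM, 1 on log2 TPM, 2 with the replicate block, 1 with the length offset, and 0 at a change of at least 1 log2. Limma-voom, RLE size factors and the stricter filter each called 4, and without the low count filter Acadm and Echs1 replaced Acadl and Suclg1. With single libraries left out the count ran from 0 to 16, that of all genes lower from 42 to 1304 and that of all genes higher from 279 to 1414. All genes lower, 643 in the report, numbered 1088 by DESeq2, 258 without TMM, 135 on log2 TPM (788 higher), 342 with the length offset and 49 at 1 log2, where 370 were higher. Without the third library of both groups 2039 genes were lower and 1947 higher, with 18 enzymes lower and 3 higher. The cause of these shifts was not tested, other than that leaving out samples leaves fewer of them.

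Fold changes that turned round all belonged to enzymes that were not called. With the length offset Cpt1a came to -0.159, Acads to 0.0247 and Etfa to 0.00577. With length and GC offsets, Cpt1a came to -0.0259, Acads to 0.0827, Idh3b to 0.0488 and Idh3g to 0.0231, and with the replicate block added to -0.0206, 0.0844, 0.0424 and 0.0243. On log2 TPM Hadha came to 0.10, Dlat to -0.19 and Dld to 0.0044. With single libraries left out, Acads ran from -0.257 to 0.0159 (positive without sgNT replicate 1), Idh2 from -0.153 to 0.162 (negative without sgElovl1 replicate 2 or sgNT replicate 1) and Dlst from -0.0282 to 0.296 (negative without sgElovl1 replicate 1), and Dlat came to -0.0051 without the third library of both groups. The replicate block ended the calls of Acadl (adjusted p = 0.0535) and Suclg1 (0.0550) and no other enzyme's, and all genes came to 557 lower and 1119 higher with it. Leaving out the third libraries, and testing isoform length without them, gave Dlat, Hadha and Acadm log2 lengths of 0.27, -0.18 and -0.11 at adjusted p of 0.220, 0.385 and 0.454; this isoform comparison was added after seeing the data. Depth limits Cpt1b, Acsl1 and Acot2, which had few reads.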

Other observations

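Among 18 tested genes of the transcriptional control of oxidation 1 was higher and 1 lower, with a median log2 fold change of 0.05. Over all genes 8.64% were called higher and 5.13% lower. Nrip1, a corepressor of nuclear receptors that restrains oxidative genes in fat and muscle, had 148.5, 134.4 and 136.3 CPM in sgElovl1 against 50.90, 44.09 and 46.98 CPM in sgNT. Each sgElovl1 library was far above each sgNT library, with a log2 fold change of 1.56 ± 0.11 SE (adjusted p = 8.713e-05), and the call held with each of the 6 libraries left out and with the length offset. Rxrb, a partner of the PPAR receptors, was lower (log2 fold change -0.42 ± 0.12 SE, adjusted p = 0.0394), kept its call only when sgNT replicate 3 was left out among the single libraries, and had an adjusted p of up to 0.147 without sgElovl1 replicate 1.

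Of 18 tested genes for uptake, storage and carnitine supply of fatty acids 1 was higher and 1 lower, with a median of -0.03. Over all genes 8.64% were called higher and 5.13% lower. Mlycd, which degrades malonyl-CoA, the inhibitor of Cpt1a, had 22.33, 17.85 and 19.57 CPM in sgElovl1 against 29.18, 26.20 and 28.72 CPM in sgNT. The groups were apart (log2 fold change -0.49 ± 0.13 SE, adjusted p = 0.0345). G0s2, an inhibitor of triglyceride breakdown, was scarce, with 0.7701, 0.7284 and 0.7317 CPM in sgElovl1 against 0.1704, 0.1559 and 0.08278 CPM in sgNT, and was higher by a log2 fold change of 2.40 ± 0.58 SE (adjusted p = 0.0220). Of the single libraries, leaving out sgElovl1 replicate 3 alone kept both calls, and adjusted p-values reached 0.171 for Mlycd and 0.133 for G0s2 without sgElovl1 replicate 2.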
